A study of Rattus norvegicus with 18 samples.

Results

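The nuclear-encoded subunits of the mitochondrial respiratory chain and of ATP synthase were compared between the kidneys of 2 rat strains. A gene was included if its symbol began with Ndufa, Ndufb, Ndufc, Ndufs or Ndufv (complex I), Sdha to Sdhd (complex II), Uqcr (complex III), Cox4 to Cox8 (complex IV) or Atp5 (ATP synthase), and if at least 1 probe set, the unit in which these arrays combine several short probes, carried that symbol and no other. The assembly factors named Ndufaf and Sdhaf were left out, which removed 7 genes. Where a gene had several probe sets, the one with the highest mean log2 signal stood for it. This gave 78 genes of the 10969 that the arrays name through a single-symbol probe set: 36 of complex I, 4 of complex II, 8 of complex III, 15 of complex IV and 15 of ATP synthase. All 78 were found in the GRCr8 assembly, on 19 chromosomes.

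One strain was the Dahl salt-sensitive rat (Dahl S), an inbred model in which salt in the diet raises blood pressure. The other was a congenic strain, which has the Dahl S genome except for a chromosome 9 segment from a salt-resistant (R) rat, chosen for a blood pressure locus. There were 3 total RNA samples of the kidney from each strain, each hybridised to 3 array types, for 18 arrays in all, and the number of arrays limits the precision. The labels used here give no age, sex or diet and do not give the borders of the segment. Nor do they say whether the samples come from separate animals, and the p-values reflect only the variation among these samples, part of which can be technical. Read as a check of the tissue, signals in the 6 samples ranged from 5763.4 to 7455.6 for Umod (thick ascending limb), from 10806.5 to 16451.4 for Slc34a1 (proximal tubule) and from 511.1 to 697.5 for Aqp2 (collecting duct). Slc12a1, the sodium cotransporter of the thick ascending limb, read from 72.9 to 123.9 in 5 samples and 11.4 in congenic sample 2, below the filter level of 21.2.

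The respiratory chain passes electrons from NADH, at complex I, or from succinate, at complex II, through ubiquinone to complex III, through cytochrome c to complex IV, and finally to oxygen. Complexes I, III and IV pump protons out of the mitochondrial matrix, and ATP synthase lets them return through its membrane rotor while its catalytic head makes ATP. Kidney tubules reabsorb sodium with ATP made in this way, and the proximal tubule and thick ascending limb are dense in mitochondria.

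Of the 78 genes, 76 passed the filter on low signal, and 0 of the 76 passed an adjusted p of 0.05 in limma, as was so for 0% of all 8158 genes tested. The signals of these genes were slightly higher in the congenic kidneys, with a median log2 difference of +0.05 (congenic minus Dahl S) against -0.01 over all genes. In 52 of the 76 the congenic mean was higher (68.4%, against 48.9% of all genes), and in 24 it was lower. The direction rested largely on congenic sample 3: without it 38 of 76 were higher (50%) and the median was 0.00. Without Dahl S sample 1 the count was 40 and the median +0.01, and without congenic sample 1 they were 59 and +0.13. Proximal tubule markers were also higher in the congenic kidneys (18 of 23, median +0.12), and in bulk RNA more cells of a type and more RNA per cell cannot be told apart. Single differences ran from -0.25 (Ndufb1 and Ndufb5) to +0.55 (Uqcrb), and 71 of 76 were smaller than 0.25 in size. At an unadjusted limma p under 0.05 there was 1 gene, Ndufc2, where the share of all genes was 2.35%. These differences were measured more tightly than most, in genes that were also bright. The median SE was 0.17 against 0.27 over all genes. In 72 of 76 the 95% confidence interval lay within 1 log2 unit of 0 on both sides. By mean signal, 64 of the 78 were above the 90th percentile of the probe sets on their array type. The values over all genes, here and below, were not matched for signal.

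**Figure D1:**
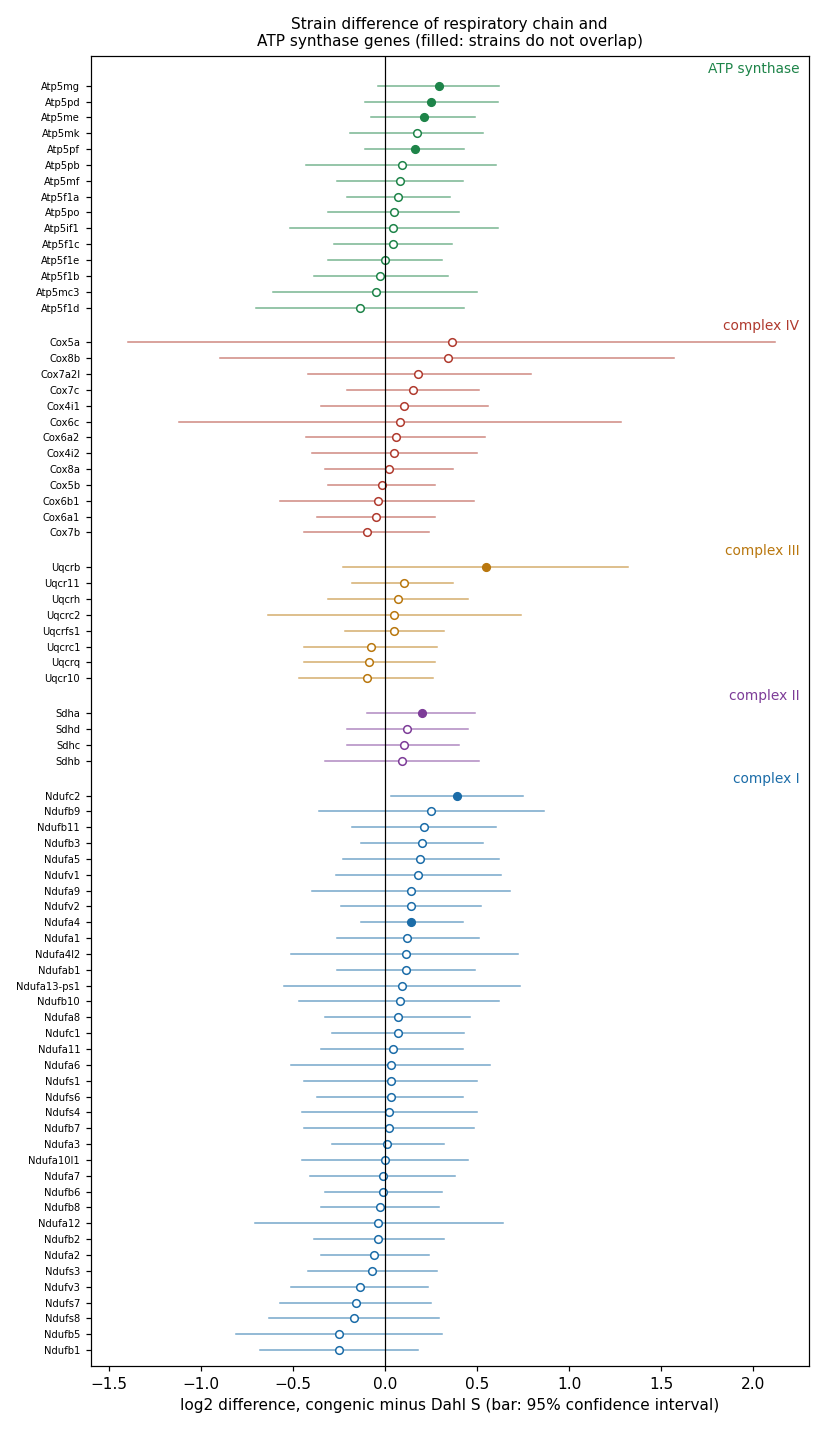
Log2 difference in signal between the congenic and Dahl S kidneys (horizontal axis) of the 76 tested genes, grouped by complex. Bars are 95% confidence intervals from limma (n = 3 per strain), and filled points mark the 8 genes whose strains do not overlap, all on the congenic side, while the interval of 1 gene, Ndufc2, leaves 0 out.

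In 8 genes the 3 congenic values all lay above the 3 Dahl S values, and in 0 genes did they all lie below. Across all 8158 genes the congenic samples were wholly above in 3.82% and wholly below in 3.8%. The 8 were 10.5% of the 76, against 7.62% of all genes separate in either direction. They were the complex I subunits Ndufc2 and Ndufa4, the complex II subunit Sdha, the complex III subunit Uqcrb and 4 subunits of ATP synthase, and the adjusted limma p of each was 0.9997. This count depended on the scaling of the arrays. With each array scaled to its median, 2 genes were wholly separate, both with higher congenic signal (2.63%). Of all genes 3.08% were then separate with higher congenic signal, and 5.26% in either direction.

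**Figure D2:**
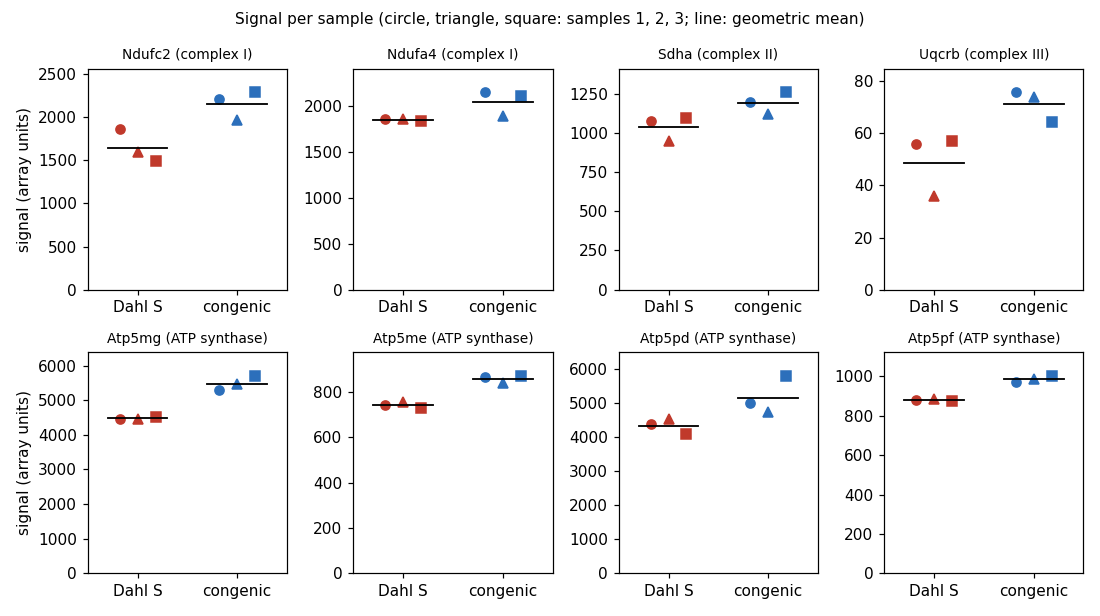
Signal in deposited array units (vertical axis, from 0) of the 8 genes whose strains do not overlap, in each Dahl S (red) and congenic (blue) sample. Circles, triangles and squares are samples 1, 2 and 3 and lines are geometric means. In Atp5mg, Atp5me and Atp5pf the samples of each strain lie close together, while in Ndufa4, Sdha and Atp5pd the lowest congenic sample lies near the highest Dahl S sample.

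Complex I takes electrons from NADH through a chain of iron-sulfur clusters in its matrix arm and pumps protons in its membrane arm. In 23 of its 36 tested genes the congenic mean was higher, with a median of +0.03. In 2 of the 36 the strains did not overlap, both with higher congenic signal, where the share of all genes was 3.82%. The median was -0.01 without congenic sample 3, +0.12 without congenic sample 1 and +0.09 with median scaling. Ndufc2, an accessory subunit of the membrane arm, read 1858.7, 1598.2 and 1497.3 in Dahl S samples 1 to 3 and 2211.6, 1966.8 and 2289.4 in congenic samples 1 to 3. Every congenic value was above every Dahl S value, by a log2 difference of +0.39 (SE 0.16, n = 3 per strain), or 30.8%, with an unadjusted limma p of 0.0374 and an adjusted p of 0.9997. Its difference was +0.32 to +0.48 with each sample left out in turn, and +0.30 with quantile normalization, where the strains overlapped. Its other tested probe sets gave +0.16 (SE 0.20) and +0.72 (SE 0.49), both with overlap. With no trend in eBayes, quantile normalization, median scaling or averaged probe sets, 0 of the respiratory genes had an unadjusted limma p under 0.05. Ndufa4, a small subunit that has also been assigned to complex IV, read 1856.7, 1858.5 and 1841.7 in Dahl S and 2150.4, 1886.4 and 2104.8 in congenic kidneys. The Dahl S samples were nearly equal, and congenic sample 2 was close to them (difference +0.14, SE 0.12). A second tested Ndufa4 probe set gave -0.06 (SE 0.19) with overlap, and the mean of the tested probe sets was +0.04.

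The catalytic core of complex I showed no common direction. Ndufv1, which holds the NADH-binding site, was 0.18 higher in the congenic strain (SE 0.20), and its partner Ndufv2 was 0.14 higher (SE 0.16). Ndufs1, the largest subunit of the matrix arm, differed by +0.03 (SE 0.21), and its congenic values of 414.9, 429.2 and 665.7 lay on both sides of the Dahl S values of 525.0, 430.1 and 492.0. Ndufs3 (-0.07, SE 0.15), Ndufs7 (-0.16, SE 0.18) and Ndufs8 (-0.17, SE 0.20), which lie near the site of ubiquinone reduction, had lower congenic means by about 1 SE or less. The 6 genes of the Ndufs series had a median of -0.02, against +0.07 for the 15 of the Ndufa series and +0.01 for the 10 of the Ndufb series.

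The accessory subunits held the lowest differences of all. Ndufb1, a membrane-arm subunit, read 390.6, 276.9 and 410.3 in Dahl S and 287.8, 300.1 and 305.8 in congenic kidneys. Dahl S sample 2 was the lowest of all 6 samples, so the strains overlapped (difference -0.25, SE 0.19). Ndufb5 also differed by -0.25 (SE 0.24), with congenic sample 1, at 352.7, as its lowest value. On the other side were Ndufb9 (+0.25, SE 0.27), Ndufb11 (+0.21, SE 0.17) and Ndufb3 (+0.20, SE 0.14), all with overlap. Ndufa4l2, a paralog of Ndufa4 known as a target of hypoxia signalling, differed by +0.11 (SE 0.27), with overlapping values from 118.8 to 168.3 in Dahl S and from 119.8 to 212.5 in congenic samples. Its 4 tested probe sets ranged from -1.07 to +0.11, the widest disagreement among these genes. The lowest read 37.7, 42.1 and 51.2 in Dahl S and 19.4, 26.6 and 17.1 in congenic kidneys, without overlap. Its difference of -1.07 (SE 0.42) had an unadjusted limma p of 0.0351 and did not pass the adjusted threshold. These signals were low, with congenic samples 1 and 3 below the filter level of 21.2. The remaining complex I genes lay between -0.14 (Ndufv3) and +0.19 (Ndufa5). They included Ndufa13-ps1 (+0.09, SE 0.28), which is named as a pseudogene and passed the filter. Without genes named as pseudogenes, 51 of 75 tested genes of all complexes were higher in the congenic strain, with a median of +0.05.

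Complex II oxidises succinate and is both a citric acid cycle enzyme and an entry point of the chain, and all 4 of its subunits are nuclear genes. In all 4 the congenic mean was higher, with a median of +0.11. Sdha, the flavoprotein that oxidises succinate, read 1079.1, 951.3 and 1096.6 in Dahl S and 1195.4, 1124.5 and 1260.4 in congenic kidneys. Congenic sample 2 was only just above the highest Dahl S sample (difference +0.20, SE 0.13). Its 3 probe sets were all higher in the congenic strain, at +0.20 to +0.48, although the strains overlapped in the other 2. The iron-sulfur subunit Sdhb (+0.09, SE 0.18) and the membrane anchors Sdhc (+0.10, SE 0.13) and Sdhd (+0.12, SE 0.14) differed by less than 1 SE, and their strains overlapped. The complex II median stayed positive with each sample left out, at +0.08 to +0.18.

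Complex III hands electrons from ubiquinol to cytochrome c. Of its 8 tested genes 5 had higher congenic means, and the median was +0.05. Uqcrb, which helps form the ubiquinone-binding pocket, had the largest difference of the 76 genes. It read 56.1, 36.1 and 57.2 in Dahl S and 75.8, 74.0 and 64.4 in congenic kidneys, a log2 difference of +0.55 with an SE of 0.34. These signals were low, with Dahl S sample 2 below the filter level of 37.7 on its array type, so the size is uncertain. The Rieske iron-sulfur protein Uqcrfs1 (+0.05, SE 0.12) and the core proteins Uqcrc1 (-0.08, SE 0.16) and Uqcrc2 (+0.05, SE 0.30) differed by less than 1 SE. So did the small subunits Uqcr10 (-0.10), Uqcr11 (+0.10), Uqcrq (-0.09) and Uqcrh (+0.07). The median turned to -0.03 without Dahl S sample 3, to -0.01 with quantile normalization and to -0.07 when the probe sets of each gene were averaged. Cyc1, the cytochrome c1 of the same complex, lies outside the naming rule and differed by -0.06.

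Complex IV reduces oxygen to water, and several of its nuclear subunits exist as tissue isoforms. Its 15 genes included the subunit gene Cox6b2 and the pseudogene Cox6c-ps1, which did not pass the filter. Of the 13 tested, 9 had higher congenic means and the median was +0.06. In 0 of them were the strains without overlap, where the share of all genes was 7.62% in either direction. Without Dahl S sample 1 the median was -0.08. Cox4i1, the common form of subunit IV, read 4820.3, 6576.4 and 6671.4 in Dahl S and 5032.6, 6949.1 and 7476.5 in congenic kidneys. Within each strain sample 1 was the lowest, and the strains overlapped (difference +0.10, SE 0.20). Its 3 probe sets lay between +0.10 and +0.11, and in one of the others, at +0.11 (SE 0.11), the strains did not overlap.

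Among the isoforms, Cox4i2, the form of subunit IV associated with low oxygen, differed by +0.05 (SE 0.20). The widely expressed Cox6a1 differed by -0.05 (SE 0.14), and Cox6a2, its heart and skeletal muscle partner, by +0.06 (SE 0.21). The 2 tested Cox6a2 probe sets read -0.65 and +0.06. Cox6b1 differed by -0.04 (SE 0.23), and its untested partner Cox6b2 had signals from 13.8 to 42.3, below the filter level of 39.3 in 4 samples. Cox8a, the widespread form of subunit VIII, differed by +0.02 (SE 0.15). Cox8b, the muscle form, differed by +0.34 (SE 0.54) with signals from 15.1 to 42.3, in Dahl S sample 1 below the filter level of 21.2. Of the 20 measured skeletal and heart muscle markers 8 passed the filter, with 4 higher in the congenic strain and a summed signal of 1776.3 to 1901.3 in Dahl S and 1578.6 to 2092.3 in congenic samples. Ckm, Mb, Acta1 and Myh7, named after their values were seen, were among those that did not pass. Cox7a2l, which promotes the assembly of respiratory supercomplexes, differed by +0.18 (SE 0.26), Cox7c by +0.15 (SE 0.16) and Cox7b by -0.10 (SE 0.15).

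The least certain differences were also in complex IV. Cox5a, a subunit that faces the matrix, read 37.2, 234.8 and 252.8 in Dahl S and 82.5, 174.3 and 326.4 in congenic kidneys. Sample 1 was the lowest in both strains by a wide margin, so the strain difference of +0.36 had an SE of 0.77. Cox6c read 85.0, 259.8 and 401.2 in Dahl S and 171.9, 194.9 and 312.1 in congenic kidneys, with the same order (+0.08, SE 0.52). A probe set named for both Cox5a and a second locus, left out by the single-symbol rule, also had sample 1 lowest in each strain, at 2692.7 and 2851.5, and a strain difference of +0.15 (SE 0.22). Cox5b, which binds zinc, differed by -0.02 (SE 0.13), and its strains overlapped.

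In ATP synthase 4 of 15 genes were without overlap and higher in the congenic strain, where the share of all genes was 3.82%. All 4 encode subunits of its membrane part or of the peripheral stalk that holds the catalytic head in place. With median scaling none of the 4 was without overlap, and the 2 genes that were, among all complexes, were Ndufc2 and Uqcrb. Atp5mg, the membrane subunit g, which helps ATP synthases pair into dimers, read 4459.5, 4461.5 and 4516.2 in Dahl S and 5284.7, 5465.8 and 5696.3 in congenic kidneys. The gap between the strains was wider than the range within either, and the log2 difference was +0.29 (SE 0.15), or 22.3%, with an unadjusted limma p of 0.0784 and an adjusted p of 0.9997. A second tested Atp5mg probe set gave +0.29 too (SE 0.21), although Dahl S sample 3 was low and the strains overlapped there. The difference of the first was +0.18 with quantile normalization and +0.39 with median scaling.

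Atp5me, the membrane subunit e and partner of subunit g, read 741.9, 757.2 and 728.7 in Dahl S and 864.0, 838.3 and 869.7 in congenic kidneys. Here too the samples of a strain were close together (difference +0.21, SE 0.12). Atp5pf, coupling factor 6 of the peripheral stalk, read 879.8, 887.3 and 874.4 in Dahl S and 969.2, 985.8 and 1001.3 in congenic kidneys, with similarly little spread (+0.16, SE 0.12). Its second probe set gave 0.00. Atp5pd, subunit d of the same stalk, read 4375.4, 4534.8 and 4089.4 in Dahl S and 4995.3, 4722.5 and 5782.1 in congenic kidneys. Congenic sample 3 was far above the rest (+0.25, SE 0.16). With quantile normalization the difference was +0.10 and the strains overlapped. The other tested probe sets of Atp5pd read -0.04 and -0.72, so that the mean of its probe sets was 0.17 lower in the congenic strain.

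The remaining ATP synthase genes all overlapped. Of the F1 part, the catalytic subunit Atp5f1b differed by -0.03 (SE 0.16), its partner Atp5f1a by +0.07 (SE 0.12), and the central stalk subunits Atp5f1c, Atp5f1d and Atp5f1e by +0.04, -0.14 and 0.00. The rotor ring subunit Atp5mc3 differed by -0.05 (SE 0.24), the stalk subunits Atp5pb and Atp5po by +0.09 and +0.05, and the small membrane subunits Atp5mf and Atp5mk by +0.08 and +0.17. Atp5if1, the inhibitor that blocks ATP hydrolysis, differed by +0.04 (SE 0.25). Divided after the values were seen, the 5 genes of the F1 part had a median of 0.00 with 2 higher, and the 9 genes of the peripheral stalk and membrane had a median of +0.16 with 8 higher. Congenic sample 3 was the highest of the 6 samples in 8 of these 9 genes and in 2 of the 5 of the F1 part, against 17.9% of all genes. No test was made of this division. The F1 genes were read on array types A and C, while Atp5mg, Atp5pd and Atp5mk were read on type B. For Atp5mk the difference was +0.12 with quantile normalization and +0.27 with median scaling. The part of array type in this division was not tested. The median of all 15 genes was +0.07, with 11 higher. It was +0.01 without congenic sample 3 and +0.17 without congenic sample 1.

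Promoter sequences of 67 of the 78 genes, each from 250 bases before to 50 bases after the start of the gene, were available from RefSeq on the GRCr8 assembly. They were searched on both strands for core letters of the binding motifs of 3 regulators of mitochondrial genes, NRF1 (GCGC, any 2 bases, then GCGC), GABP (CCGGAAG) and YY1 (AAGATGGC), a choice made after the strain values were seen. Matches of different motifs did not overlap in any of the 67. Among the genes without strain overlap, Ndufc2 and Ndufa4 held no match and Atp5mg held only that of GABP. For Uqcrb and Atp5pd no promoter was available. Below are 3 of the genes without strain overlap, shown because they hold the motifs in different combinations, with every match in capitals, read 5′ to 3′ along the strand of the gene. Atp5me (chr14:1464610-1464909, plus strand) holds all 3, Atp5pf (chr11:37375052-37375351, minus strand) those of YY1 and GABP, and Sdha (chr1:30764303-30764602, plus strand) that of NRF1 in 3 places.
Atp5me: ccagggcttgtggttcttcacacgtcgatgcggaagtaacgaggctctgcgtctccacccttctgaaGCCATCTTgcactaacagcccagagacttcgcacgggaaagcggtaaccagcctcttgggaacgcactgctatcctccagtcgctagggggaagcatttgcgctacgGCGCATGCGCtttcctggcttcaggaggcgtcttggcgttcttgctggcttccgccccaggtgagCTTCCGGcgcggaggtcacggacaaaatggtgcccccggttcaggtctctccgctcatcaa
Atp5pf: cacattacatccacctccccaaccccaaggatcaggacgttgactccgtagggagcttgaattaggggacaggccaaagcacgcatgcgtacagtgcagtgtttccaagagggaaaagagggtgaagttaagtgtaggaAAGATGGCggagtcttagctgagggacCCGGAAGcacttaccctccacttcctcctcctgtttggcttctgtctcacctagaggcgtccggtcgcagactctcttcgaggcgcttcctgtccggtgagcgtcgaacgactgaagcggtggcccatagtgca
Sdha: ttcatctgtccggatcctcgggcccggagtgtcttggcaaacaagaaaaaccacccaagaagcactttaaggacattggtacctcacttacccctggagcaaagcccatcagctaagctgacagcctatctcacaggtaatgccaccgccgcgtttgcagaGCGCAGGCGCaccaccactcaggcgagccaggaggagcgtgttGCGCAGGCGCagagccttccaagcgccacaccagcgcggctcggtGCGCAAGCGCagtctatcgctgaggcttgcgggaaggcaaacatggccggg

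The YY1 letters were in 23.9% of these promoters, against 5.09% of the 9041 promoters found for genes on the arrays. The GABP letters were in 28.4% against 15.9%, and the NRF1 letters in 17.9% against 11.9%, while 43.3% held none of the 3, against 71.5%. On the forward strand and within 40 bases of the start, the YY1 letters were in 19.4% of the promoters against 2.9% of those on the arrays. These letters contain ATG, so the context of a start codon can match them. Among the tested genes the median strain difference with and without a motif was +0.04 and +0.06 for NRF1, +0.07 and +0.04 for GABP, and +0.03 and +0.06 for YY1. The congenic mean was higher in 15 of 19 genes with the GABP letters and 29 of 47 without, in 12 of 16 with the YY1 letters and 32 of 50 without, and in 8 of 12 with the NRF1 letters and 36 of 54 without. These values were not tested.

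Looked at by sample, the respiratory genes were high in congenic sample 3. Relative to each gene's mean over the 6 samples, their median was -0.07, 0.00 and 0.00 in Dahl S samples 1 to 3 and -0.07, +0.04 and +0.16 in congenic samples 1 to 3. Congenic sample 3 was the highest of the 6 in 33 of the 76 genes (43.4%), against 17.9% of all genes. By complex this was so for 11 of 15 ATP synthase genes, 15 of 36 of complex I, 4 of 13 of complex IV, 2 of 4 of complex II and 1 of 8 of complex III.

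**Figure D3:**
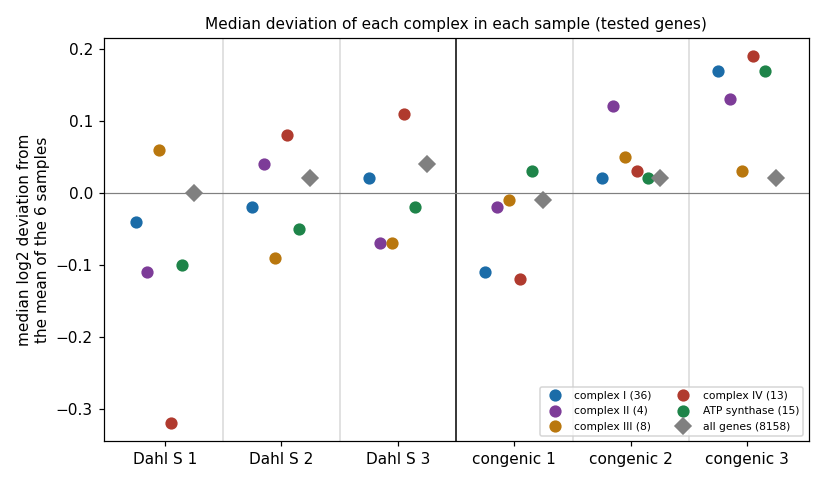
Median log2 deviation from the mean of the 6 samples (vertical axis) for the tested genes of each complex and for all genes, in each sample, with the number of genes in the key. Complex IV is lowest in Dahl S sample 1, at -0.32. Complexes I, II and IV and ATP synthase are highest in congenic sample 3, complex II only just, at 0.13 against 0.12 in congenic sample 2. The median of all genes stays between -0.01 and 0.04.

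A further division ran across both strains. The samples numbered 1 were lower than those numbered 2 and 3 in 50 of the 76 genes (65.8%, against 52.3% of all genes), with a median log2 difference of -0.09 (all genes -0.03). In 22 genes both samples numbered 1 were the lowest of all (28.9%, against 15.8% of all genes). The complex IV median of this difference was -0.25, with Cox5a at -2.12, Cox6c at -1.22 and Cox7a2l at -0.61. The complex III median was +0.06. Its gene Uqcrc2 (+0.80) read 837.1, 450.9 and 419.9 in Dahl S and 758.2, 437.8 and 529.8 in congenic kidneys. The arrays of the samples numbered 1 also had higher median signals, at 45.5 and 45.9 on array type A against 34.8 to 39.4 in the others. Their log2 ratios of 3′ to 5′ control signal were lower, for GAPDH 0.31 and 0.11 against 0.54 to 0.68, and for beta-actin 0.49 and 0.50 against 1.07 to 1.35. Between the strains these ratios differed by -0.12 and +0.09 (exact two-sided permutation test over samples, p = 0.5 and 0.7, where 0.1 is the smallest p possible). The part of these array properties in the gene values was not tested.

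Without both samples numbered 1, 50 of 76 genes were higher in the congenic strain (65.8%, against 49.5% of all genes), the median was +0.08, and 0 passed the adjusted threshold in limma. The strains were then wholly separate in 19 genes with higher and 5 with lower congenic signal. With 2 samples per strain separation is more frequent. It was 15% of all genes with higher and 15.2% with lower congenic signal, against 25% and 6.58% of these genes. The complex IV median turned to -0.03, and that of ATP synthase was +0.12.

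**Figure D4:**
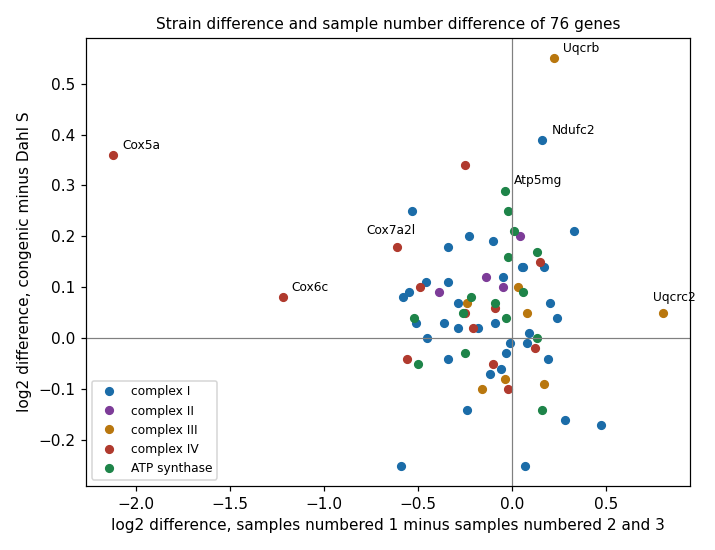
Each point is 1 of the 76 tested genes, with the log2 difference between samples numbered 1 and samples numbered 2 and 3 on the horizontal axis and the difference between the strains on the vertical axis. Both axes are computed from the same 6 samples. Cox5a, at -2.12, and Cox6c, at -1.22, lie far to the left, and most points lie above 0 on the vertical axis.

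**Figure D5:**
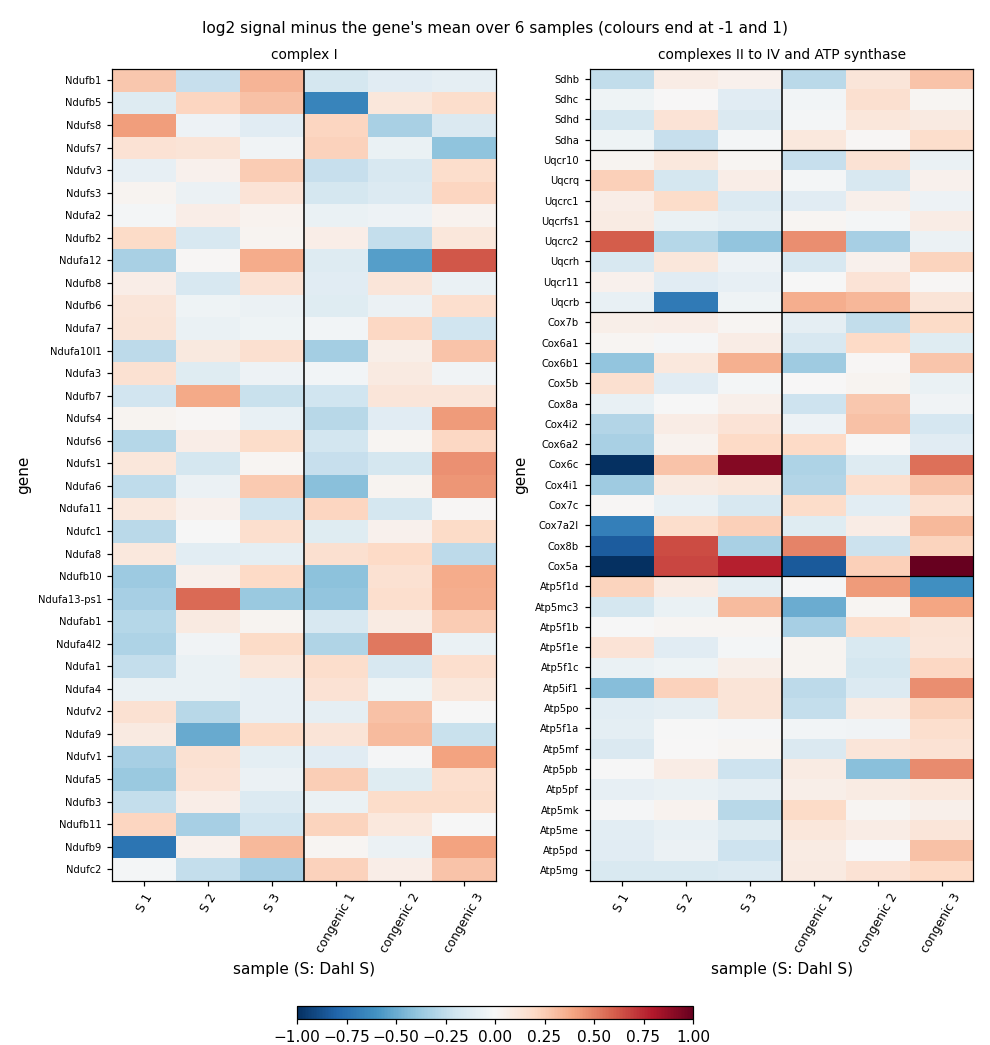
Log2 signal minus the mean of the gene over the 6 samples, for the 76 tested genes (rows, ordered by strain difference within each complex) and the 6 samples (columns, with a line between the strains). Colours end at -1 and 1, and the red column of congenic sample 3 and the blue values of complex IV genes in Dahl S sample 1 stand out.

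Other probe sets of the same genes gave a second reading that the choice of the brightest had not used. There were 62 of them that passed the filter, and in 34 the congenic mean was higher (54.8%, against 49.5% of all probe sets), with a median of +0.03. The strains were wholly separate in 1 with higher and 4 with lower congenic signal, where the shares of all probe sets were 3.59% and 3.49%. At an unadjusted limma p under 0.05 there was 1 of the 62, that of Ndufa4l2 at -1.07, against 391 of all 15721 tested probe sets. For the 8 genes without overlap, 6 had other tested probe sets, 9 in all, of which 6 were higher in the congenic strain and 0 were wholly separate. In 18 of the 40 genes with several tested probe sets, all of them had the same sign. Ndufb8 (from -0.25 to +0.53) and Ndufv1 (from -0.01 to +0.69) were among those that disagreed most, while Cox7a2l (+0.18 and +0.19) and Cox4i1 were among those that agreed. Subunit genes of this kind have many processed pseudogenes, and 8 probe sets that name a subunit together with a second locus, such as those of Ndufb4 and Atp5mc1, were not counted. Their strain differences ran from -0.09 to +0.28 among those that passed the filter.

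Of the genes encoded on chromosome 9, which carries the introgressed segment, 5 were respiratory genes. Ndufb3 differed by +0.20, Ndufv2 by +0.14, Ndufa11 by +0.04, Ndufs1 by +0.03 and Cox5b by -0.02, each with overlapping strains. Whether any of them lies inside the segment cannot be told from the labels.

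Of 5 lists of related mitochondrial genes, 3 had medians of +0.05 or more, as the respiratory genes did, and 2 had medians of -0.02 and -0.03, against -0.01 over all genes. In limma 0 of their genes passed the adjusted threshold. Of 30 tested assembly factors 14 were higher in the congenic strain (median -0.02), among them Sdhaf3, which matures complex II, at +0.32 (SE 0.16), and the complex I factor Ecsit at +0.28 (SE 0.20). Of 15 genes of electron entry and ubiquinone synthesis 6 were higher (median -0.03), with Coq8a, needed for ubiquinone synthesis, at +0.41 (SE 0.21) and Etfdh, which passes electrons from fatty acid oxidation to ubiquinone, at +0.29 (SE 0.20). In Sdhaf3, Coq8a and Etfdh the strains did not overlap. The congenic samples were wholly above in 3 of the 30 assembly factors and 2 of these 15 genes, against 3.82% of all genes. Of 10 mitochondrial carriers 7 were higher (median +0.05). The uncoupling protein Ucp2 differed by -0.25 (SE 0.24) and its relative Ucp3 by +1.78 (SE 0.79), but Ucp3 was below the filter level in 2 samples.

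Citric acid cycle genes were higher in 11 of 16 (median +0.08), including the isocitrate dehydrogenases Idh3b (+0.30, SE 0.19) and Idh2 (+0.26, SE 0.17). Regulators of mitochondrial gene expression were higher in 7 of 13 (median +0.06). Tfb2m, a factor that starts transcription of mitochondrial DNA, read 74.2, 87.4 and 73.3 in Dahl S and 144.1, 119.5 and 126.3 in congenic kidneys. The strains did not overlap, and the difference was +0.73 (SE 0.32) with an unadjusted limma p of 0.0457 and an adjusted limma p of 0.9997. Esrra, the estrogen-related receptor alpha that drives respiratory genes, did not overlap in the opposite direction (-0.23, SE 0.14). Among the 13 regulators 1 was wholly higher and 1 wholly lower, where the shares of all genes were 3.82% and 3.8%. Of the carriers and the citric acid cycle genes 0 were wholly separate. None of the 13 subunits encoded by mitochondrial DNA was matched by symbol to a probe set, so they were not analysed here.

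Markers of tubule cells had mostly higher congenic means. For the proximal tubule, with 18 of 23 tested markers higher, the summed signal was 51756.1 to 55997.5 in Dahl S and 55581.1 to 64038.6 in congenic samples. For the thick limb and distal tubule 8 of 10 were higher (median +0.10), with summed signals of 8915.2 to 11061.1 and 10579.9 to 10749.0. For the collecting duct 7 of 10 were higher (median +0.08), with 4308.2 to 4618.2 and 4636.2 to 5290.6. Leukocyte markers were higher in 3 of 14 (median -0.34; 5451.0 to 6948.7 against 5067.3 to 5233.1) and smooth muscle and stroma markers in 4 of 14 (median -0.26; 6380.0 to 7655.2 against 6063.2 to 6539.4). Blood cell markers were higher in 1 of 6 (median -0.44). Their summed signal was 12601.4, 14906.8 and 52238.2 in Dahl S samples 1 to 3 and 19167.3, 15989.3 and 10114.6 in congenic samples 1 to 3. Dahl S sample 3 alone was far above the rest. Of the brown fat list 3 of 6 passed and 1 was higher. No listed marker was at or below the 10th percentile of its array type in every sample, although not all markers passed the filter. The part of cell makeup in the differences of the respiratory genes was not tested.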

How the data were processed

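Titles gave the group and number of each sample, and tags in the labels linked its 3 arrays. The authors deposited 1 intensity per probe set on a linear scale. The software behind it is not stated in the labels used here, and the mean after trimming 2% at each end was 150.1 to 150.2 on every array, so no scaling was added. Values below the 10th percentile of an array type were raised to it (3.1, 6.8 and 4.9), log2 was taken, and probe sets with a mean below the 40th percentile (signals of 21.2, 39.3 and 37.7 on types A, B and C) were not tested.

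Strains were compared with limma 3.58.1 (lmFit, eBayes with a trend, R 4.3.3) in 1 fit per array type. Benjamini-Hochberg adjustment ran over all 15721 tested probe sets. The fit was tested on simulated data. The genes, lists and named genes were chosen with earlier results of these data known. Named in full were, per complex, the up to 4 genes with the smallest p and the extremes, then core subunits, isoform pairs, genes whose probe sets disagreed, chromosome 9 genes and 2 genes per pathway list. Counts and medians over genes have no test. Names came from the GEO platform annotation.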

Additional observations from a re-analysis of the deposited data

How the results depend on the processing

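In limma 0 of the tested genes passed an adjusted p of 0.05 under every alternative run: no floor or a 25th percentile floor, no filter or a 60th percentile filter, scaling to the median, quantile normalization, eBayes with robust estimation or with no trend, adjustment within each array type, averaged probe sets per gene, the replicate block, each sample left out, and both samples numbered 1 left out. At an unadjusted limma p under 0.05 there were 0 to 3 genes, and 3 only with no filter, where genes of low signal enter. In the main run it was 1 gene, where the share of all genes was 2.35%. That share was not computed for the alternatives. The number of genes whose strains do not overlap, 8 (10.5%, against 7.62% of all genes), was 24 without both samples numbered 1 (31.6% against 30.2%), 4 with averaged probe sets (5.26% against 7.54%) and 2 with median scaling (2.63% against 5.26%). It was 9 to 16 with each sample left out (11.8% to 21.1%, against 15.8% to 18.8%), where smaller groups overlap less often by construction. The complex III median, +0.05, was -0.07 with averaged probe sets and -0.03 to +0.06 with each sample left out. The ATP synthase median, +0.07, was +0.01 to +0.17 with each sample left out. The causes of the other moves were not tested.

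The samples were not treated as pairs. Deviations of same-numbered samples correlated across all probe sets at 0.45, 0.08 and 0.18 for numbers 1, 2 and 3. On array types B and C, at 0.14 to 0.49, each number correlated best with its own, and on type A, at 0.53, -0.09 and 0.16, number 1 did. With the replicate block 0 genes passed and the lowest adjusted limma p was 0.9231. The strain medians and counts above were the same with it.

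Precision is limited by 3 samples per strain. The median 95% confidence interval, not adjusted for the number of probe sets tested, extended 0.38 log2 units to either side. At the adjusted threshold a difference of +0.39, in Ndufc2, did not pass. Of the 76 intervals, 51 stayed within a 1.5-fold change in either direction. The largest SEs among the 76 genes were those of Cox5a (0.77), Cox8b (0.54) and Cox6c (0.52).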
